A study of Mus musculus with 2 samples.

Results

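The guanylate-binding proteins are large GTPases of the dynamin superfamily that interferons induce and that act inside the cell against microbes. This account covers the 8 genes Gbp2, Gbp3, Gbp4, Gbp5, Gbp6, Gbp7, Gbp8 and Gbp9, chosen by name from the 23238 gene symbols of the deposited counts, and all 8 symbols were found once in each library. Of these genes, 7 had 50 or more reads in both libraries, whereas Gbp9 reached that floor only in the UNE-C1 library. The data are read counts from a 3'-end RNA sequencing assay of mouse bone marrow-derived dendritic cells, which are antigen-presenting cells grown from marrow. A single library came from cells treated with UNE-C1 at 100 nM for 24 h, and a single library from control cells. Both cultures came from C57BL/6 female mice aged 7 weeks, were grown with the cytokine GM-CSF at 20 ng/ml, given again on day 3, and gave loosely attached or floating immature cells on day 6. No genetic change is named for either group, and the labels do not say what the control cells received or how many mice gave marrow. UNE-C1, a piece of the enzyme cysteinyl-tRNA synthetase, is known to engage the receptors TLR2 and TLR6, and the study asked which signalling molecules it induces.

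Guanylate-binding proteins bind and hydrolyse GTP, assemble on the membranes of pathogen vacuoles and of bacteria, and help to break them open. Some members carry a prenyl lipid that anchors them to membranes, and others join the coat by binding to these. In mice the genes lie in a cluster on chromosome 3 and another on chromosome 5, and mice that lack the chromosome 3 cluster control the parasite Toxoplasma gondii poorly. Interferons switch the genes on through GAS and ISRE elements of their promoters, and interferon regulatory factors bind the ISRE.

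Promoters are printed so that ISRE and GAS letters can be read in them, for each member that had a window in the table used. RefSeq (GRCm38.p6) promoter windows, from 250 bases before to 50 bases after each annotated start, were matched for 4 of the 8 members, Gbp2, Gbp3, Gbp5 and Gbp7, and Gbp3 has 2 such windows. The promoters of Gbp4, Gbp6, Gbp8 and Gbp9 were not used here. Printed are the 250 bases before the start on the plus strand, 5′ to 3′, in the order chr3:142620413-142620662 for Gbp2, chr3:142559794-142560043 for Gbp3, chr3:142496684-142496933 for Gbp5 and chr3:142530086-142530335 for Gbp7. Capitals mark matches, on either strand, to the ISRE letters GAAANNGAAA (TTTCNNTTTC when read on the other strand) or to the GAS letters TTCNNNGAA, which read the same on both strands.
Gbp2: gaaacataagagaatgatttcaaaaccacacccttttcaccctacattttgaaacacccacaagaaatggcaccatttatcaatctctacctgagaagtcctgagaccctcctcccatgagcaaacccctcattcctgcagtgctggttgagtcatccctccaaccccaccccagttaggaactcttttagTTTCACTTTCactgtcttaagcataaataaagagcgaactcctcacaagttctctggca
Gbp3: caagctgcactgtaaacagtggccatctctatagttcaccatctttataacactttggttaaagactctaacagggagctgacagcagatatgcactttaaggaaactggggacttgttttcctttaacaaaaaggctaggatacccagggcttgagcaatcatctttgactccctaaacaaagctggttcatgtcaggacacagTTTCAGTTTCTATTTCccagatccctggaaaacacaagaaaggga
Gbp5: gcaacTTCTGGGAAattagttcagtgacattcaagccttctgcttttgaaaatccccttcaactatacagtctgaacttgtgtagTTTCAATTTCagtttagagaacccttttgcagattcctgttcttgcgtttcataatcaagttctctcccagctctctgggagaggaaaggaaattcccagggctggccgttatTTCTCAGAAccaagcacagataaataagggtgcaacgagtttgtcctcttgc
Gbp7: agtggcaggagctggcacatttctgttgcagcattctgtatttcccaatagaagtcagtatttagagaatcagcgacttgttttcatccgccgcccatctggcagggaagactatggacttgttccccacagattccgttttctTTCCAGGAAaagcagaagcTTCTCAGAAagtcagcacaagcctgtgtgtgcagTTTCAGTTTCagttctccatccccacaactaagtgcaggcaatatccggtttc

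An ISRE match stood in the window of each of these 4 genes, against 3.44% of the 32851 promoter windows of the same length in the table. In Gbp2 it lay from 59 to 50 bases before the start and in Gbp7 from 53 to 44 bases before it. Gbp3 held 2 overlapping matches, from 45 to 36 and from 39 to 30 bases before the first of its starts, and its second window held no match to either motif. In Gbp5 the match lay farther out, from 165 to 156 bases before the start. GAS matches were found in Gbp5, at 245 to 237 and at 52 to 44 bases before the start, and in Gbp7, at 106 to 98 and at 87 to 79 bases before it, against 8.30% of all windows. Both motifs together, as in Gbp5 and Gbp7, occurred in 0.454% of windows. A match to the NF-kappaB consensus was found in Gbp5 alone of the 4, from 77 to 68 bases before the start (4.51% of all windows), and a match to the AP-1 letters TGANTCA in Gbp2 alone, from 102 to 96 bases before it (7.81% of all windows). None of the GAS, ISRE, NF-kappaB and AP-1 matches overlapped another, except the 2 ISRE matches of Gbp3. These matches describe letters only, and no binding was measured. The RefSeq start used for Gbp5, 142496934, and its whole printed window lie inside the GENCODE M21 span of the gene given below, which begins at 142493978. For Gbp2 and Gbp3 the starts used (142620663 and, for the printed window, 142560044) also lie past the first base of that span (142620602 and 142560026). The 2 annotations thus place these starts differently.

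The counts were scaled to CPM, that is to library size, with library sizes adjusted by edgeR's TMM method, which assumes that most genes do not differ. Because the assay reads each transcript near its 3' end, a read count does not grow with transcript length, and levels of different genes are compared as CPM without division by length. Each ratio is the plain CPM ratio, UNE-C1 over control, with an exact binomial 95% interval that covers counting error only. As each group is 1 library, replicate error could not be measured and no test was run, and every difference is one between 2 libraries. The UNE-C1 library held 15975821 reads and the control library 14857198.

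All 8 Gbp genes had more reads in the UNE-C1 library. Together they took 31889 reads there and 3193 in the control library, or 2248 and 191 CPM, a ratio of 11.8 (interval 11.4 to 12.2). They made up 0.200% of all UNE-C1 reads and 0.0215% of all control reads. The 8 genes were all at least 2-fold higher on the scale log2((CPM + 1)/(CPM + 1)), as were 9.31% of the 10469 genes past the floor of 50 reads in 1 library or both, and none of the 8 was 2-fold lower, as were 9.42% of those genes. At 8-fold on that scale 6 of the 8 were counted, Gbp7 and Gbp8 not being among them, against 1.17% of the 10469 genes. With a pseudocount of 5 CPM 5 of the 8 were, since Gbp9 then stood at 2.39. Their log2 fold changes ran from 1.81 to 4.66 with a median of 3.52, beside a median of -0.00 for all 10469 genes. With total counts in place of TMM sizes the median of all genes moved to -0.33, and of the genes at least 2-fold apart 28.0% were higher in UNE-C1 instead of 49.7% (657 higher and 1693 lower, against 975 and 986). All 8 Gbp genes were still at least 2-fold higher with total counts, and the ratio of their summed reads was 9.29.

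**Figure D1:**
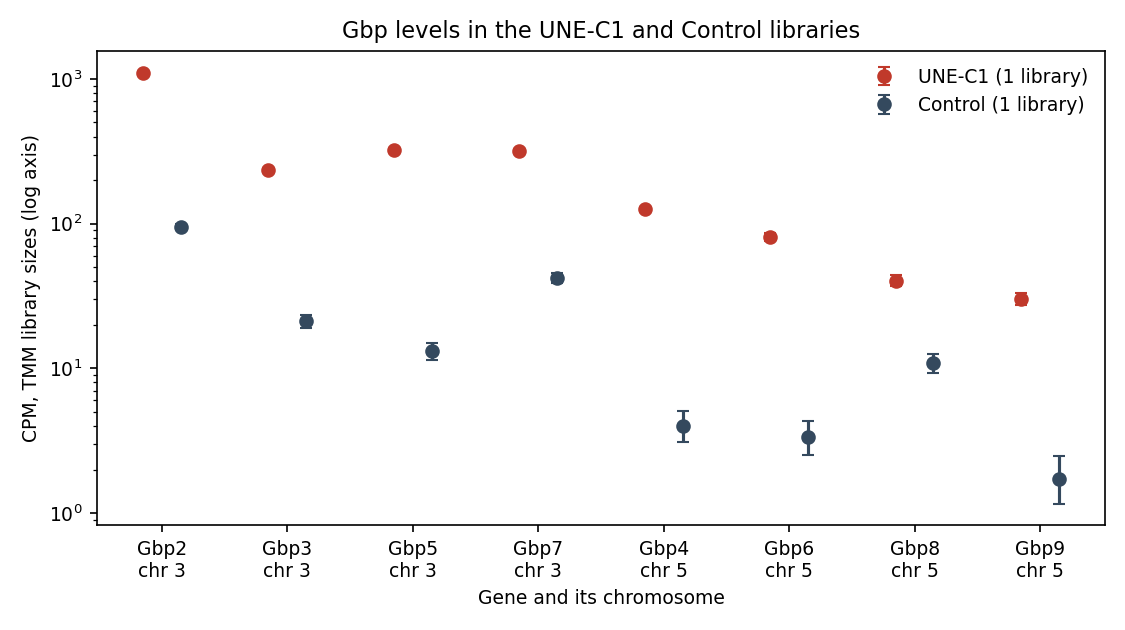
Level of each of the 8 Gbp genes in CPM (log axis) in the UNE-C1 library and the control library, with bars for the exact Poisson 95% interval of the read count, which covers counting error only. Every gene sits higher in the UNE-C1 library, from Gbp2 at 1093 against 94.5 CPM to Gbp9 at 30.2 against 1.73 CPM.

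The chromosome 3 members carried most of the reads. Gbp2, a prenylated member that gathers on Toxoplasma vacuoles, had 15504 reads in the UNE-C1 library and 1582 in the control library, or 1093 and 94.5 CPM. It was the most abundant member in both libraries, and its place among all symbols ordered by reads was 117 in UNE-C1 and 1636 in control. The ratio was 11.6 (interval 10.98 to 12.2), with a log2 fold change of 3.52. Gbp2 lies on the plus strand of chromosome 3 from 142620602 to 142638008 (GENCODE M21 on GRCm38, the assembly also called mm10, as are all gene positions here).

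Gbp5 is another prenylated member, which in mouse macrophages promotes assembly of the NLRP3 inflammasome (chromosome 3, 142493978 to 142522344, plus strand). It had 4596 reads in UNE-C1 and 220 in control, or 324 and 13.1 CPM. Its ratio of 24.6 (interval 21.5 to 28.3; log2 fold change 4.52) was the highest of the 4 chromosome 3 members. Gbp7, which in mouse macrophages brings the NADPH oxidase to phagosomes, had 4541 reads in UNE-C1 and 705 in control, or 320.1 and 42.1 CPM. Gbp7 (142530342 to 142550149, plus strand) was second to Gbp2 in the control library, and its ratio of 7.60 (7.02 to 8.24; log2 fold change 2.90) was the lowest of the 4. Gbp3, which lies between Gbp7 and Gbp2 (142560026 to 142573209, plus strand), had 3319 reads in UNE-C1 and 353 in control, or 234 and 21.1 CPM. Its ratio of 11.1 (9.94 to 12.4; log2 fold change 3.41) had an interval that overlapped that of Gbp2.

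The chromosome 5 members had fewer reads in both libraries and the widest spread of ratios. Gbp4, which in mouse cells is reported to bind IRF7 and dampen interferon production, had 1777 reads in UNE-C1 and 67 in control, or 125 and 4.004 CPM. Its ratio of 31.3 (24.5 to 40.6; log2 fold change 4.66) was the highest of all 8 genes, though its interval overlapped those of Gbp5, Gbp6 and Gbp9. Gbp6 had 1150 reads in UNE-C1 and 56 in control, or 81.1 and 3.35 CPM, a ratio of 24.2 (18.5 to 32.3; log2 fold change 4.24). Gbp9 had 429 reads in UNE-C1 and 29 in control, or 30.2 and 1.73 CPM. As the member with the fewest control reads it had the least certain ratio relative to its size, 17.5 (11.98 to 26.4), with a log2 fold change of 3.51, and its interval overlapped that of every other member except Gbp7 and Gbp8.

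Gbp8 had the lowest ratio of the 8. It had 573 reads in UNE-C1 and 181 in control, or 40.4 and 10.8 CPM. Its ratio of 3.73 (3.15 to 4.44; log2 fold change 1.81) had an interval that overlapped that of no other member. The same held for the interval of Gbp7 (7.02 to 8.24). Gbp8 also had the lowest log2 fold change of the 8 with pseudocounts of 0.1 CPM (1.89) and 5 CPM (1.52). The other scalings and floors could not bear on this place. Floors leave the values of the members as they are, and scalings shift all members almost alike. All 4 chromosome 5 genes lie on the minus strand, Gbp8 from 105014150 to 105139540, Gbp9 from 105077630 to 105139539, Gbp4 from 105115767 to 105139586 and Gbp6 from 105270702 to 105293698. The annotated spans of Gbp8, Gbp9 and Gbp4 thus overlap on the same strand. Gbp6 overlaps the read-through gene Gm43302 over 22994 bases and Gbp7 the processed pseudogene Gm43802 over 637 bases, both on the same strand. How the authors' counting treated reads there is not stated, and the part of these overlaps in the values of Gbp8 and the others was not tested.

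Summed by cluster, the chromosome 3 members had 27960 reads in UNE-C1 and 2860 in control, a ratio of 11.5 (11.1 to 11.99). The chromosome 5 members had 3929 reads in UNE-C1 and 333 in control, a ratio of 13.9 (12.4 to 15.6). Without Gbp2 the other 7 genes together had a ratio of 11.998 (11.4 to 12.6), so the summed ratio did not rest on the most abundant gene.

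The make-up of the Gbp reads differed between the libraries while the leading gene kept its share. Gbp2 held 48.6% of the summed reads in UNE-C1 (Clopper-Pearson 95% interval 48.1 to 49.2) and 49.5% in control (47.8 to 51.3). Gbp5 held 14.4% in UNE-C1 (14.03 to 14.8) and 6.89% in control (6.04 to 7.82). The share of Gbp7 was 14.2% in UNE-C1 (13.9 to 14.6) and 22.1% in control (20.7 to 23.6), and that of Gbp8 was 1.80% in UNE-C1 (1.65 to 1.95) and 5.67% in control (4.89 to 6.53). Gbp4 made up 5.57% in UNE-C1 (5.32 to 5.83) and 2.10% in control (1.63 to 2.66). These shares do not depend on how the libraries are scaled to each other.

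**Figure D2:**
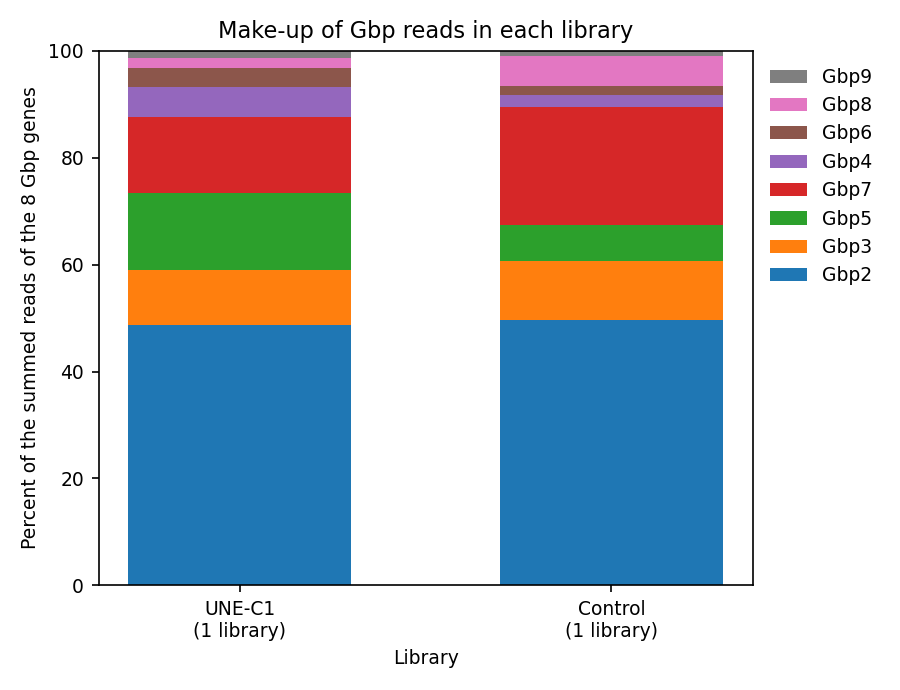
Percent of the summed reads of the 8 Gbp genes taken by each gene, in the UNE-C1 library (left bar) and the control library (right bar). Gbp2 takes 48.6% and 49.5%, Gbp5 14.4% and 6.89%, and Gbp7 14.2% and 22.1%.

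Ordered by reads in the UNE-C1 library, the genes ran Gbp2, Gbp5, Gbp7, Gbp3, Gbp4, Gbp6, Gbp8 and Gbp9. Gbp5 and Gbp7 did not differ there beyond counting error (4596 and 4541 reads, ratio 1.01, interval 0.971 to 1.05), while every other pair of neighbours in the order did. The order in the control library was Gbp2, Gbp7, Gbp3, Gbp5, Gbp8, Gbp4, Gbp6 and Gbp9. Gbp5 and Gbp8 were within counting error of each other in control (220 and 181 reads, 0.994 to 1.49), as were Gbp4 and Gbp6 (67 and 56 reads, 0.826 to 1.74). Gbp9 came last in both libraries. The place of Gbp6 depends on how reads were split between it and its near-identical relative Gbp10. Together these 2 had 1737 reads in UNE-C1 and 84 in control, beside 1777 and 67 for Gbp4.

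How far reads can be told apart differed among the 8 genes. The proteins encoded by Gbp6 and by Gbp10, a gene of the family that is not among the 8, were 97.7% identical over aligned positions, and their coding sequences 98.4%. Among the 8 themselves the closest pairs were Gbp6 and Gbp9 (84.0% protein identity), Gbp4 and Gbp6 (77.2%), Gbp4 and Gbp9 (77.0%) and, on chromosome 3, Gbp3 and Gbp7 (71.0%). Gbp2 and Gbp5 shared 54.7%. Of all 50-base windows in the last 500 bases of the annotated principal transcripts, where this assay reads, 77.8% of those of Gbp6 occurred also in transcripts of another gene, each of them in Gbp10. The share was 7.32% for Gbp8, 6.43% for Gbp4, 3.77% for Gbp9 and 1.62% for Gbp5. No such window was found for Gbp2, Gbp3 or Gbp7. With windows of 75 bases the share was 70.2% for Gbp6 and at most 1.06% for the other 7. The read length is not stated in the labels.

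Gbp10 had 587 reads in UNE-C1 and 28 in control, a ratio of 24.7 (16.9 to 37.5) beside the 24.2 of Gbp6. Summed, Gbp6 and Gbp10 had 1737 reads in UNE-C1 and 84 in control, a ratio of 24.4 (19.6 to 30.7), and this summed ratio is unaffected by any split of reads between them. Of the other relatives, Gbp2b, the closest to Gbp2 (76.2% protein identity), had 134 reads in UNE-C1 and 42 in control, a ratio of 3.76 (2.64 to 5.46). Gbp11, annotated as a polymorphic pseudogene, had 39 reads in UNE-C1 and 0 in control, with 11.9 as the lower limit of the exact interval of its ratio. Gbp2b and Gbp10, which had 50 or more reads in UNE-C1, were at least 2-fold higher, though with a pseudocount of 5 CPM only 1 of them was counted.

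**Figure D3:**
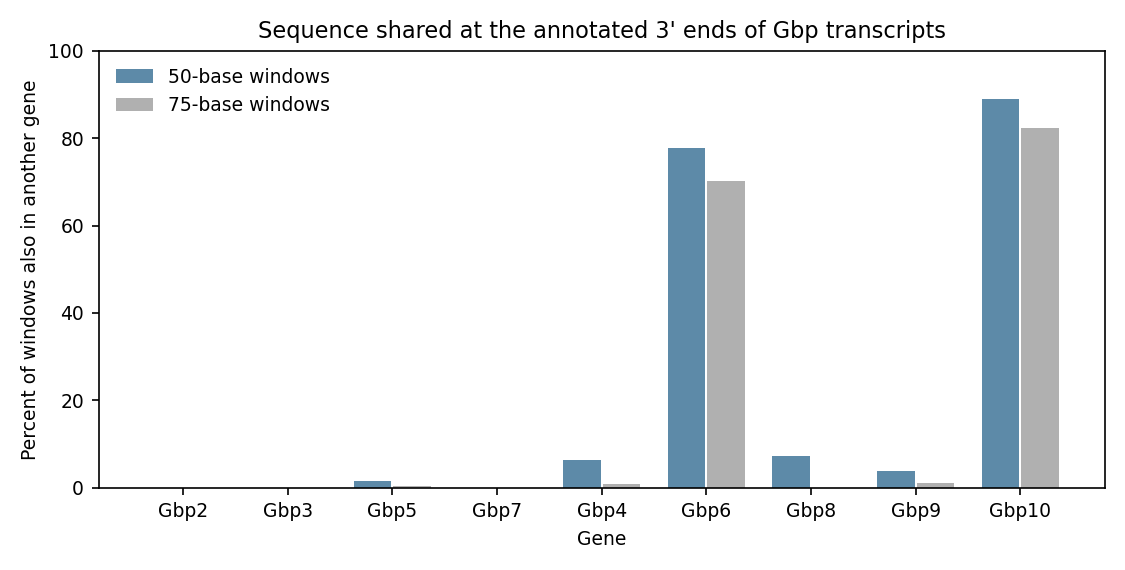
Percent of 50-base and 75-base windows in the last 500 bases of the annotated principal transcripts that also occur in transcripts of another gene, for the 8 Gbp genes and Gbp10. Gbp6 stands at 77.8% and 70.2%, while Gbp2, Gbp3 and Gbp7 have no shared window.

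Around the clusters the measured genes differed little, with 1 exception. Of 11 protein-coding genes within 500 kb outside the 2 clusters, 6 passed the floor of 50 reads. Of these 1 was at least 2-fold higher, as were 9.31% of all 10469 genes past the floor. The 1 flanking gene was Lrrc8c, a subunit of volume-regulated anion channels on chromosome 5. It had 202 reads in UNE-C1 and 63 in control, a ratio of 3.78 (2.84 to 5.10). The other 5 had log2 fold changes from -0.15 to 0.51, the highest being that of the kinase Pkn2 on chromosome 3. The median of the 6 was 0.05, which turned to -0.28 with total counts. The 5 genes under the floor had at most 31 reads in either library, and of these Ccbl2 on chromosome 3 had 10 reads in UNE-C1 and 31 in control, a ratio of 0.381 (0.166 to 0.796).

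**Figure D4:**
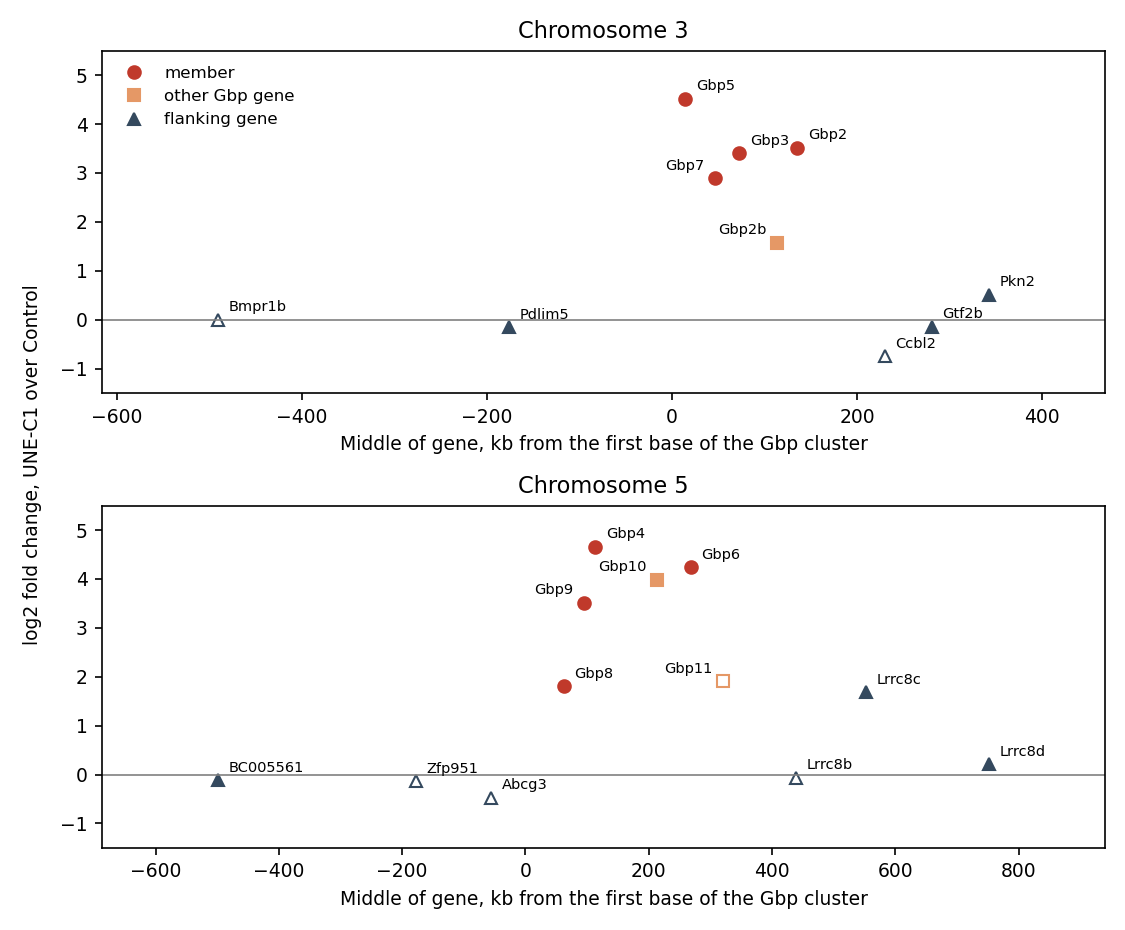
Log2 fold change, UNE-C1 over control, of the genes in and around the Gbp clusters of chromosomes 3 and 5, against the distance of the middle of the gene from the first base of the cluster in kb. Open symbols mark genes under 50 reads in both libraries. The 8 Gbp genes lie from 1.81 to 4.66, and 5 of the 6 filled flanking genes lie from -0.15 to 0.51.

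Other GTPases that interferon induces were also higher. Members of the immunity-related GTPase family act with the guanylate-binding proteins on pathogen vacuoles. Of 9 measured genes of this family 8 were at least 2-fold higher, all but Irgq (log2 fold change 0.34), against 9.31% of the 10469 genes. The family's median was 3.15, and its highest genes were Iigp1 (7.40) and Tgtp1 (5.71). Reads of Tgtp1 are uncertain because of its near-identical copy Tgtp2. Mx1, Mx2 and Gvin1, large GTPases of the interferon response, were all at least 2-fold higher, with the largest values 3.99 for Mx2 and 2.93 for Gvin1. By contrast, none of 7 measured dynamin superfamily GTPases that shape membranes without being interferon genes was 2-fold apart in either direction. Their median was -0.09, and -0.41 with total counts, and those farthest from 0 were the atlastin Atl3 at 0.67 and the large dynamin Dnm2 at 0.44.

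Interferon transcripts themselves were nearly absent after 24 h. Of the type II interferon gene Ifng 2 reads were found in UNE-C1 and 0 in control, and of the type I gene Ifnb1 1 read in UNE-C1 and 0 in control. The other 6 interferon genes on the list, of the alpha and lambda kinds, had 0 reads in both libraries, which allows up to 0.211 CPM in UNE-C1 and 0.179 CPM in control. Of 7 interferon receptor and kinase genes, 2 were at least 2-fold higher, Jak2 (log2 fold change 1.32) and the receptor chain Ifnar2 (1.23), but none of the 7 was with total counts. Their median was 0.57, and 0.23 with total counts. Of all genes past the floor 9.31% were at least 2-fold higher, and 6.28% with total counts.

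Of 6 transcription factors of interferon signalling 4 were at least 2-fold higher, and 3 with total counts, and none was lower (median 1.37). The share of all genes past the floor that were 2-fold higher was 9.31%, and 6.28% with total counts. Irf7, which amplifies interferon production, had 20200 reads in UNE-C1 and 649 in control, a ratio of 36.7 (34.0 to 39.8). Stat2, which joins Irf9 in the complex that binds the ISRE, had 4638 reads in UNE-C1 and 773 in control, a log2 fold change of 2.80. Irf1, which drives Gbp genes in mouse cells, had 5627 reads in UNE-C1 and 2463 in control, a log2 fold change of 1.42. Irf8, a factor of dendritic cell identity, stood at 1.32, while Irf9 and Irf2 stood at 0.72 and 0.55. Of 4 feedback inhibitors 3 were at least 2-fold higher, led by Socs1 (4.17), an inhibitor of Janus kinases, and Usp18 (3.56), which restrains the type I receptor.

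**Figure D5:**
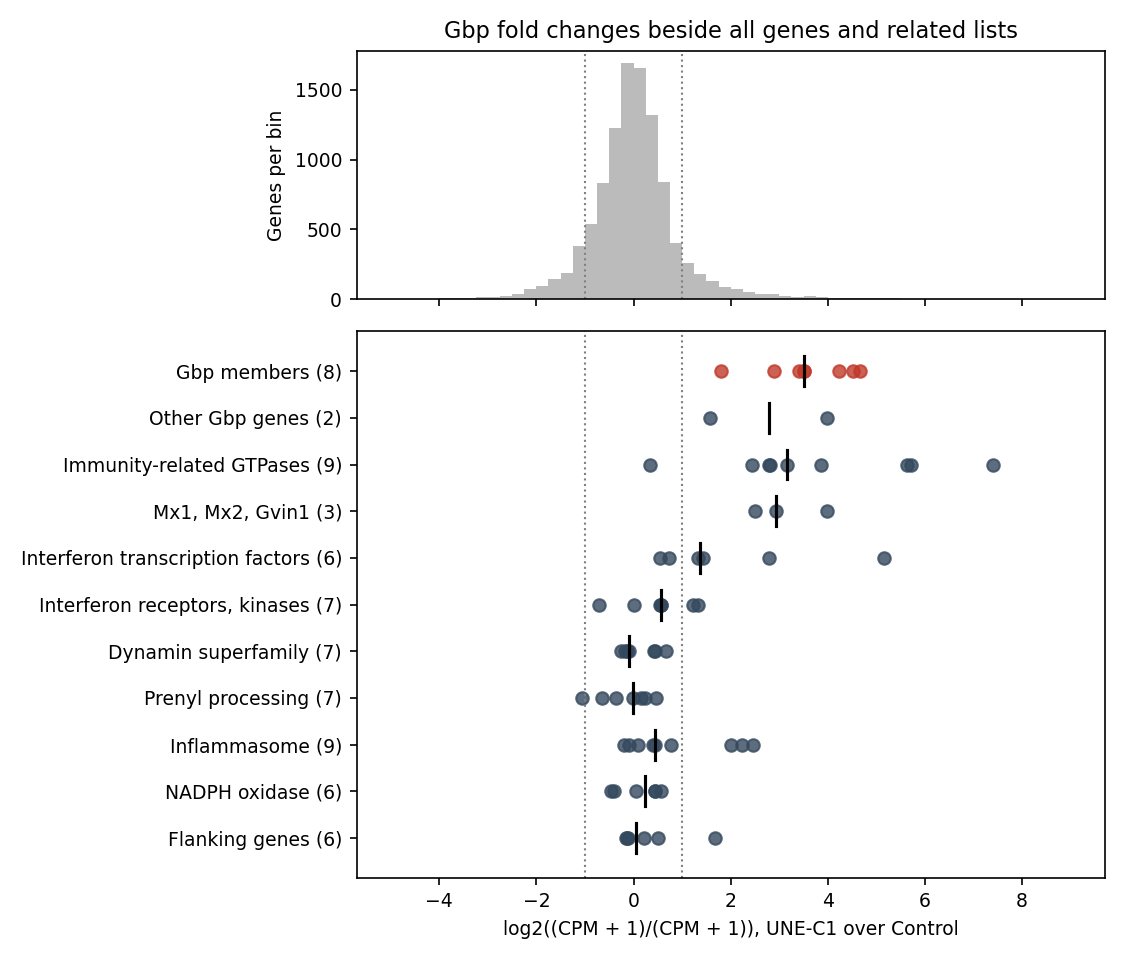
Upper panel, number of genes per bin of log2 fold change, UNE-C1 over control, among the 10469 genes past the floor of 50 reads. Lower panel, the same value for the 8 Gbp genes and for genes of related lists past the same floor, with the number of genes in brackets, a black line at each median and dotted lines at 2-fold. The Gbp genes have a median of 3.52 and the dynamin superfamily list one of -0.09.

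The genes that serve these proteins differed less between the libraries. Of 7 enzymes and carriers of prenylation, none was at least 2-fold higher and 1, Fntb, the beta subunit of farnesyltransferase, was lower (log2 fold change -1.05, on 36 reads in UNE-C1 and 106 in control). Zmpste24, a protease that trims prenylated proteins, stood at -0.65, and the list's median was -0.00, and -0.26 with total counts. Of 14 genes of the ATG8 conjugation system and its partners, through which the proteins reach vacuoles, 4 were at least 2-fold higher, and 2 with total counts. Over all genes past the floor the share was 9.31%, and 6.28% with total counts. The highest of the 14 were the autophagy receptor Sqstm1 (1.94) and the ubiquitin ligase Trim21 (1.92). Their median was 0.36, and 0.03 with total counts.

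The inflammasome is a pathway that the proteins feed by releasing bacterial molecules. Of 9 inflammasome genes 3 were at least 2-fold higher (median 0.44, and 0.10 with total counts), against 9.31% of all genes past the floor. The 3 were the cytokine Il1b (2.46) and the proteases Casp1 (2.23) and Casp4 (1.998, on 808 reads in UNE-C1 and 226 in control). Of 6 genes of the phagocyte NADPH oxidase, the enzyme that Gbp7 recruits, none was 2-fold apart in either direction. Their median of 0.25 turned to -0.10 with total counts, and those farthest from 0 were the regulator Rac2 at 0.56 and the catalytic subunit Cybb at -0.47.

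By likeness of level in both libraries (Euclidean distance in log2(CPM + 1) over the 2 libraries), the genes closest to the summed Gbp reads were Cfb (distance 0.185), Ms4a6d (0.364) and Irg1 (0.508). Cfb, complement factor B, had 2341 CPM in UNE-C1 and 169 CPM in control. Closest to Gbp2 alone were Acsl1 (0.292), Mnda (0.343) and Ms4a6c (0.379).

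Markers of the cells that such a culture holds were checked beside these values. Of 13 conventional dendritic cell markers all passed the floor of 50 reads, with the class II genes Cd74 and H2-Ab1 at 2901 and 2594 CPM in UNE-C1 and at 2907 and 2732 CPM in control, and Itgax, which encodes CD11c, at 246 CPM in UNE-C1 and 759 CPM in control. A 2-fold difference was seen upward for 2 of the 13, Xcr1 (log2 fold change 1.76) and Irf8 (1.32). It was seen downward for 2, Clec9a (-1.75) and Itgax (-1.62). Together the 13 summed to 7868 CPM in UNE-C1 and 8075 CPM in control. Most of both sums came from Cd74 and H2-Ab1, so they say little about the other markers. Irf8, counted above among the interferon factors too, stood at 991 CPM in UNE-C1 and 396 CPM in control. The 11 monocyte and macrophage markers summed to 5818 CPM in UNE-C1 and 7726 CPM in control, and 3 of 10 past the floor were at least 2-fold higher and 3 lower. All 11 neutrophil markers were at least 2-fold lower and summed to 3211 CPM in UNE-C1 and 8321 CPM in control. The 8 mast cell, basophil and eosinophil markers summed to 798 CPM in UNE-C1 and 1216 CPM in control, with 3 of 6 past the floor at least 2-fold lower. Prg2 alone gave 675 CPM of this sum in UNE-C1 and 1028 CPM in control. The 4 plasmacytoid dendritic cell markers summed to 432 CPM in UNE-C1 and 127 CPM in control, mostly from Bst2, itself an interferon target, with Siglech at 0 reads in UNE-C1 and 9 in control. T and natural killer cell markers (8 genes), B cell markers (4 genes) and markers of stroma and endothelium (4 genes) summed to 2.47, 0.352 and 10.2 CPM in UNE-C1 and to 8.90, 2.03 and 4.42 CPM in control, with Cd3e and Gzma at 0 in both. Most of the stroma and endothelium sums came from Pecam1, at 9.02 CPM in UNE-C1 and 3.53 CPM in control. In such bulk samples fewer cells of a type and less RNA per cell cannot be told apart, and the part of the cell make-up in the Gbp differences was not tested.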

How the data were processed

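RNA was measured in 1 UNE-C1 library and 1 control library. Per the labels' protocols, 500 ng of total RNA went into QuantSeq 3'-end libraries. The authors deposited whole-number read counts per gene symbol without normalization; this was read from the values. Bowtie2, edgeR and mm10 are named, without versions or roles, in the submitters' processing notes. The counting tool, its annotation, the treatment of multiply mapped reads and of strand, and any molecular identifiers are not stated there.

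The 35 symbols listed more than once were summed, which left 23238. The ribosomal RNA precursor Rn45s took 3.98% of UNE-C1 and 5.21% of control reads. CPM used TMM factors (0.888 for UNE-C1 and 1.13 for control; edgeR 4.0.16, R 4.3.3). Fold changes are log2((CPM + 1)/(CPM + 1)) and understate the change of low genes. The floor of 50 reads in at least 1 library equals 3.52 CPM in UNE-C1 and 2.99 CPM in control. Intervals are exact (scipy 1.17.1), and a count of 0 was taken to allow 3 reads. With 1 library per group no count model was fitted and no p-value was computed. Other scalings, pseudocounts and floors were tried. The fold computation was tested on simulated data.

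Identities and shared windows were computed from GENCODE M21 coding and transcript sequences (Biopython 1.88), leaving out the read-through gene Gm43302, and motifs from the RefSeq table. All 8 members were named, every measured gene of the lists of other Gbp genes and interferon transcription factors (except 1 factor that is not reported here), Ifng and Ifnb1, and of each further pathway list the 2 genes farthest from 0; likeness named the 3 closest. Tgtp2, Mx1, Casp4, Ccbl2, Irgq and the cell markers quoted singly were chosen after their values were seen. The members and lists were chosen with earlier results of these data known.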

Additional observations from a re-analysis of the deposited data

How the results depend on the processing

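All 8 Gbp genes stayed at least 2-fold higher in UNE-C1 with total counts, with DESeq2 size factors (DESeq2 1.42.0), without Rn45s, and with pseudocounts of 0.1 and 5 CPM. Floors of 10 and 200 reads and none could not change this, since every member passed each of them with the same value. Nor could adding Gbp10 to Gbp6, as their ratios were alike (24.7 and 24.2). Total counts lowered the median log2 fold change of the members to 3.21, beside -0.33 for all genes, and the ratio of summed Gbp reads to 9.29, and a pseudocount of 5 CPM gave a median of 3.28. DESeq2 size factors gave a ratio of 11.9. Of 40 values of single members under other scalings and pseudocounts, 29 stayed within counting error, 11 moved beyond it and 0 turned below 0. This split depends on read depth as well as on the setting. Total counts lowered all members by a like amount, yet Gbp4, Gbp6 and Gbp9, with the fewest control reads and the widest intervals, stayed within theirs. With a pseudocount of 5 CPM Gbp5, at 4.18, took the place of Gbp4, at 3.85, as the highest, and Gbp9, at 2.39, was no longer 8-fold higher. Of 150 list counts, 8 moved by over 1.5 times, and of 150 list medians 33 moved by over 0.25 and 7, all within 0.3 of 0, crossed 0. Over all genes, those at least 2-fold lower numbered 986, against 1693 with total counts and 484 with a pseudocount of 5 CPM, with which 76 instead of 122 were at least 8-fold higher. Depth limits Gbp9, on 29 control reads, and Gbp11, on 0. No paired analysis was possible because each group holds 1 library, and for the same reason no library could be left out.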
